A study of Mus musculus with 6 samples.

Results

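The 9 genes described here encode the receptors with which blood and lymphoid cells hold on to vessel walls, matrix and each other: the selectin ligand Selplg, the hyaluronan receptor Cd44, the integrin alpha subunits Itgal, Itga4 and Itgam, the integrin beta subunits Itgb2, Itgb1 and Itgb7, and the immunoglobulin-family receptor Pecam1. They were chosen by name as a receptor list, with earlier results of these data known. All 9 were listed in each of the 6 count matrices, which together held 20279 genes. Each gene was followed across 3 library protocols and, within each library, in B, T, NK and myeloid cells gated on marker counts. A B cell gate, for example, required at least 2 counts of B cell markers and at least 3 times as many as of the markers of each other class.

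The 6 libraries were labelled as spleen from female mice aged 10 weeks, which the series text gives as C57BL/6, with 2 libraries for each of 3 protocols. One protocol captured transcripts from the 3′ end (10x Genomics 3′ kit). Another captured them from the 5′ end with the standard kit (standard 5′). The last was a modified 5′ protocol, in which 1 µl of 10 mM dNTP was added to reverse transcription and to cDNA amplification, reverse transcription extension was lengthened from 45 minutes to 2 h, and amplification extension from 1 to 3 minutes. No group carried a genetic change or drug treatment. Full-length cDNA was read on Nanopore flow cells, according to the sample labels, although the series text describes short reads for a 3′ library. The replicate 1 libraries carry a spleen extraction text (strainer and red cell lysis), whereas the replicate 2 libraries carry a text on collagenase-isolated pancreatic islets with insulin cDNA depletion, at odds with their own spleen label. Summed pancreas markers did not exceed 78.8 CPM (counts scaled to the summed counts of a class or library) in any gated class, and B and T cell markers were abundant in all 6 libraries.

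Barcodes were kept if they held 200 genes or more and no more than 20% of mitochondrial counts. They numbered 861 to 4045 per library and carried 365826 to 2474068 counts. The standard 5′ replicate 1 library stood apart: it retained 34.0% of its barcodes, against 78.3% to 89.9% in the others. Haemoglobin genes took 13.4% to 22.3% of all counts in the replicate 1 libraries and 0.319% to 0.524% in the replicate 2 libraries. The gates assigned 9004 B cells, 4702 T cells, 387 NK cells and 421 myeloid cells and left 1064 barcodes ungated. NK cells numbered 17 to 102 and myeloid cells 16 to 146 per library, so levels in these classes rest on few cells. Any pair of libraries shared at most 16 barcodes. Nothing in the labels says that the libraries came from separate animals, and the spread behind the p-values is therefore that of libraries and may be purely technical.

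Leukocytes leave the blood in steps. Selplg (PSGL-1) binds selectins on the vessel wall and lets the cell roll, and integrins, heterodimers of an alpha and a beta chain, then bind ligands such as ICAM-1 and VCAM-1 and arrest it. Itgal pairs with Itgb2 to form LFA-1, Itgam pairs with Itgb2 to form Mac-1, and Itga4 pairs with Itgb1 (VLA-4) or with Itgb7, the gut-homing integrin. Cd44 binds hyaluronan, and Pecam1 binds itself on neighbouring cells and is known for its part in the passage between endothelial cells.

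In GENCODE M21 on mm10, the build named in the submitters' processing notes, each gene matched 1 protein-coding gene. Itgal lies at chr7:127296260-127335138 and Itgam at chr7:128062640-128118491, both on the plus strand. The other genes are Selplg at chr5:113818536-113832644, Cd44 at chr2:102811141-102901665, Itgb2 at chr10:77530252-77565708, Itga4 at chr2:79255426-79333123, Itgb1 at chr8:128685654-128733200, Itgb7 at chr15:102215995-102231944 and Pecam1 at chr11:106654217-106750628. Their annotated principal transcripts ranged from 1855 nt (Selplg) to 9767 nt (Itga4). Itga4 overlaps Cerkl on the opposite strand, and whether counting used strand is not given in the sources used here. Cerkl itself held 2 to 21 counts per library, against 68 to 892 for Itga4. Itgam overlaps the predicted gene Gm49368 on the same strand, a gene that none of the matrices lists, so its counts are uncertain to that extent.

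The promoters of Itgam and Itgb7 are shown because the levels of these genes separated the classes in opposite ways, Itgam in myeloid and NK cells and Itgb7 in T cells. The windows run from 250 bases before to 50 bases after the annotated start and come from RefSeq (GRCm38.p6). Capitals mark GAGGAA, a core sequence bound by the myeloid and B cell factor PU.1, or its reverse complement TTCCTC. The Itgam window is chr7:128062390-128062689 on the plus strand, with 1 forward and 2 reverse matches, and the Itgb7 window is chr15:102231886-102232185 on the minus strand, with 1 reverse match.
Itgam: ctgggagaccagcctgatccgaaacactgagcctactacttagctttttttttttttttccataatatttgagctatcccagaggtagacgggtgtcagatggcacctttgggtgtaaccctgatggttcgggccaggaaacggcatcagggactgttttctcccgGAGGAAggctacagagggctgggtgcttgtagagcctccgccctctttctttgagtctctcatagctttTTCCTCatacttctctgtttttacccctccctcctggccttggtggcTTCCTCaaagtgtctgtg
Itgb7: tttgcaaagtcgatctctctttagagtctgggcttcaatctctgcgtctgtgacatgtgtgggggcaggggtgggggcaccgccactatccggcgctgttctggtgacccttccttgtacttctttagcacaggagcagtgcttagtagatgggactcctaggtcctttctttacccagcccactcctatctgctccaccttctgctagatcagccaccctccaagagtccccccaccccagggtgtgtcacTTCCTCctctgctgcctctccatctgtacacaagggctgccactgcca
Of the 9 genes, 5 had a promoter entry, and 4 of the 5 held the motif on either strand. It was present in 28.3% of 32851 promoter windows of the same 300 bases, and a match is a description of letters only.

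Across the classes, B cells had the lowest levels of most adhesion receptors, T cells stood above them for 5 genes, and NK and myeloid cells had the highest levels of most. Library was kept as a block in edgeR's quasi-likelihood test on the class sums of at least 20 cells (22 sums, 6580 genes), with Benjamini-Hochberg adjustment over all genes and a call at adjusted p under 0.05. T cells exceeded B cells in 5 of 9 genes, where 21.2% of all genes tested were higher, and were lower in 1, where 21.6% were lower. NK cells exceeded B cells in 7, Itgam among them (9.3% of all genes), and were lower in 1 (15.2%). They exceeded T cells in 6, again with Itgam (5.94%), and were lower in 2 (9.88%). Myeloid cells exceeded B cells in 8, Itgam included (16.2%), and were lower in 1 (19%). They exceeded T cells in 6, Itgam included (17.7%), and were lower in 2 (20.2%), and they exceeded NK cells in 1 (12.4%) and were lower in 4 (7.69%). The median log2 difference over all genes was -0.22 for NK minus B, -0.20 for NK minus T, -0.20 for myeloid minus B and -0.18 for myeloid minus T, and the values below are not corrected for it. Scaling by library totals moved those medians by 0.32, 0.26, 0.11 and 0.06, and that of myeloid minus NK by -0.21. The share of calls that were higher then went from 38.0% to 58.9% for NK minus B, from 37.6% to 58.2% for NK minus T and from 61.7% to 48.6% for myeloid minus NK. Itgam passed the filter on low counts through the NK and myeloid sums alone: none of its 6 B or 6 T sums reached the filter's level of 36.3 CPM. Its direction against B and T cells was therefore fixed by the filter and supports nothing. The counts of higher genes that bear on these comparisons are 1 smaller. Pecam1 reached that level in 6 B, 6 T, 1 NK and 4 myeloid sums, where 5 were needed, so B and T cells carried it past the filter. Its lower direction in NK and myeloid cells against B and T cells likewise supports nothing. The counts of lower genes there are also 1 smaller.

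**Figure D1:**
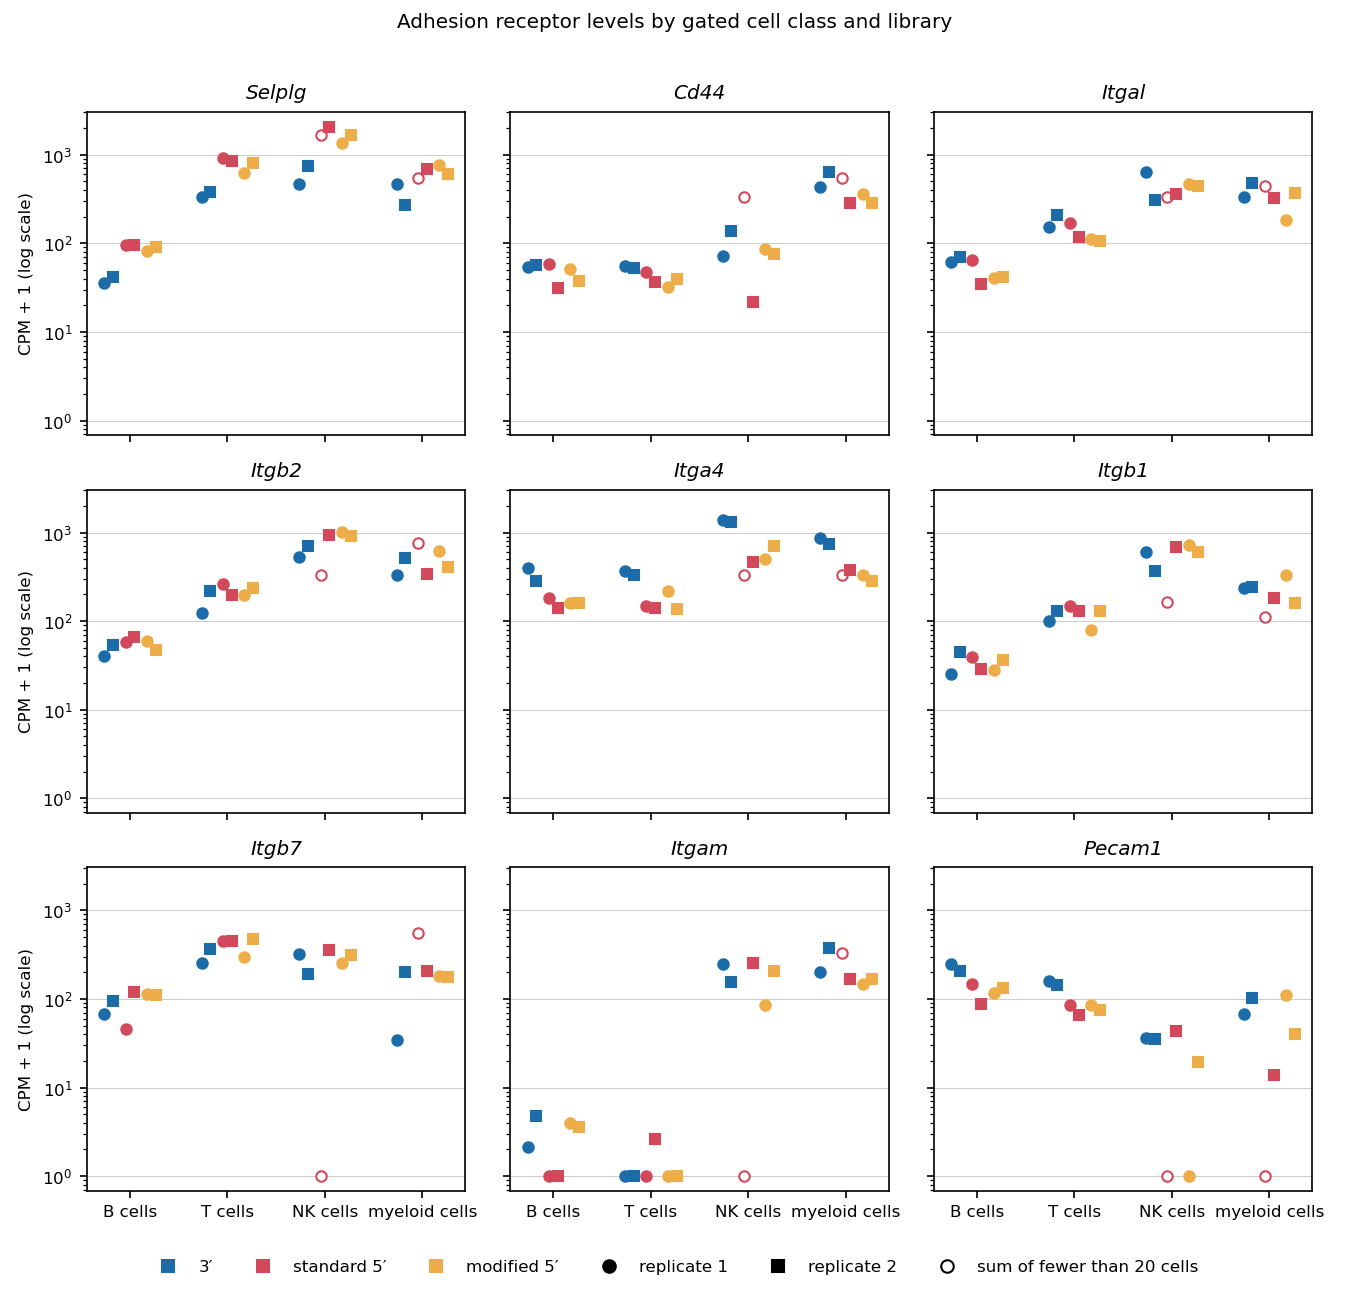
Level of each gene (CPM + 1, log scale) in gated B, T, NK and myeloid cells, with 1 point per library, colour for protocol and shape for replicate; open points are sums of fewer than 20 cells. Selplg in T cells lay between 330 and 921 CPM, above all B cell values of 34.4 to 96.0 CPM, and Itgam was near 0 in B and T cells.

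Between T and B cells, Selplg had the largest fitted difference of the 9 genes. In B cells its level was 34.4 and 40.6 CPM in the 3′ libraries, 96.0 and 93.9 in the standard 5′ libraries and 81.6 and 89.7 in the modified 5′ libraries (replicates 1 and 2 in that order). In T cells the same libraries gave 330 and 382, 921 and 851, and 614 and 800 CPM. No T cell value overlapped a B cell value, and the fitted log2 difference was 3.08 ± 0.11 (SE; edgeR adjusted p = 2.31e-85). NK cells ranged from 462 to 2082 CPM and exceeded T cells in 6 of 6 libraries, by 0.79 ± 0.13 on the log2 scale (edgeR adjusted p = 7.15e-08). With the replicate 1 libraries alone that NK minus T difference was 0.31 (edgeR adjusted p = 0.653). Myeloid cells ranged from 268 to 762 CPM, and against T cells the difference of -0.30 ± 0.14 did not pass (edgeR adjusted p = 0.0864; 95% interval -0.57 to -0.02). It passed with the stricter gate described below (-0.45, edgeR adjusted p = 0.0225), without the filter on low counts (-0.65, adjusted p = 0.000419), in the replicate 2 libraries alone (-0.45, adjusted p = 0.00808) and without the modified 5′ replicate 1 library (-0.33, adjusted p = 0.0488).

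A Selplg count was found in 19.2% to 40.2% of T cells and in 2.15% to 5.25% of B cells per library. With each cell thinned to 300 counts the shares were 10.3% to 24.1% and 1.04% to 3.01%, so the ranges stayed apart at equal depth. Median depth was 302 to 700 counts per T cell and 340.5 to 545 per B cell. PSGL-1 binds P-selectin only after sulfation and glycosylation. Of the 10 genes of that machinery on the list, 5 were tested between T and B cells, 3 were higher in T cells and 1 lower, where 21.2% of all genes were higher and 21.6% lower. St3gal4, a sialyltransferase, was higher in T cells by 2.78 ± 0.32 and Tpst2, a tyrosylprotein sulfotransferase, by 1.32 ± 0.12 (log2, edgeR adjusted p = 2.44e-15 and 1.59e-23). St3gal6, another sialyltransferase, was lower by 0.87 in T cells, with a fitted log2 difference of -0.87 ± 0.17. The median of the 5 was 1.15, against -0.00 over all genes. St3gal4 reached the filter's level of 36.3 CPM in 0 B sums and 1 T sum. The genes of the list that were not tested had equal or lower medians in T cells. Tpst1, the other sulfotransferase, had 34.7 CPM in B and 1.82 in T cells, Gcnt1 17.4 and 3.02, and St3gal3 4.89 and 1.82. Fut4 had 0.977 and 0, and Fut7 0 in both. The list as a whole therefore had no common direction.

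Cd44 was high in myeloid cells and low in B and T cells. Its level in myeloid cells was 433 and 646 CPM in the 3′ libraries, 548 and 285 in the standard 5′ libraries and 363 and 286 in the modified 5′ libraries. B cells lay between 30.0 and 57.6 CPM and T cells between 31.0 and 54.7 CPM, overlapping each other and lying below every myeloid value. The myeloid minus B difference was 3.12 ± 0.19 and myeloid minus NK was 2.59 ± 0.32 (log2, edgeR adjusted p = 2.33e-41 and 5.74e-13). T and B cells were not separated (-0.12 ± 0.18, 95% interval -0.47 to 0.23). In NK cells 19 counts in all gave 21.0 to 330 CPM, too few for an order against the lymphocytes.

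The subunits of LFA-1 had the same order of class medians, from B through T and myeloid to NK cells. Itgal, the alpha L chain, ranged from 33.8 to 69.2 CPM in B cells (median 50.2) and from 106 to 207 CPM in T cells (median 135). NK cells ranged from 311 to 639 CPM (median 400.3) and myeloid cells from 181 to 478 CPM (median 349). Ranges of B and T cells did not overlap, nor did those of T and NK cells. The T minus B difference was 1.45 ± 0.13 and NK minus T was 1.31 ± 0.20 (log2, edgeR adjusted p = 1.31e-23 and 1.48e-08). With a stricter gate of at least 3 counts and none of another class, the NK minus T call was lost (0.94, edgeR adjusted p = 0.0689). NK and myeloid cells were not separated (0.04 ± 0.22, 95% interval -0.38 to 0.47).

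Itgb2, the beta 2 chain shared by LFA-1 and Mac-1, was at 39.9 to 64.8 CPM in B cells and 122 to 260 CPM in T cells. NK cells gave 533 and 708 CPM in the 3′ libraries, 330 (17 cells) and 946 in the standard 5′ libraries and 1012 and 905 in the modified 5′ libraries. Every NK value lay above every T value, and every T value above every B value. The differences were 1.84 ± 0.12 for T minus B and 1.77 ± 0.15 for NK minus T (log2, edgeR adjusted p = 2.83e-40 and 1.25e-23). Myeloid cells, at 333 to 768 CPM, were lower than NK cells by -0.70 ± 0.17 (log2, edgeR adjusted p = 0.000769); this call was lost with the stricter gate (-0.31, adjusted p = 0.569).

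Itgam, the Mac-1 alpha chain and a myeloid and NK marker, had 88 counts in myeloid cells, 41 in NK cells, 11 in B cells and 1 in T cells over the 6 libraries. Myeloid levels were 200 and 377 CPM in the 3′ libraries, 329 (16 cells) and 168 in the standard 5′ libraries and 145 and 167 in the modified 5′ libraries. NK levels were 249, 155, 0 (17 cells), 252, 84.3 and 203 CPM in the same order. B cells lay between 0 and 3.8 CPM, below every myeloid value and below the NK value in 5 of 6 libraries. Pooled over libraries, myeloid cells held 116 times the B cell level (exact 95% counting interval 61.8 to 241) and NK cells 90.7 times (45.8 to 196). Against T cells, whose level rests on 1 count, the myeloid ratio was 704 with an interval of 123 to 28108. An Itgam count was found in 11.4% to 26.0% of myeloid cells and in 0% to 0.175% of B cells, whose median depth was 340.5 to 545 counts against 524 to 958 in myeloid cells. The intervals cover counting error only.

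Neutrophil markers in the gated myeloid cells ranged from 0 to 17672 CPM (12 of 12 markers detected in the richest library). Without the myeloid cells that held any such count, Itgam was at 122, 366, 329, 174, 119 and 142 CPM in the same order of libraries. Myeloid and NK cells were not separated for Itgam (0.44 ± 0.31, log2, 95% interval -0.17 to 1.05).

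**Figure D2:**
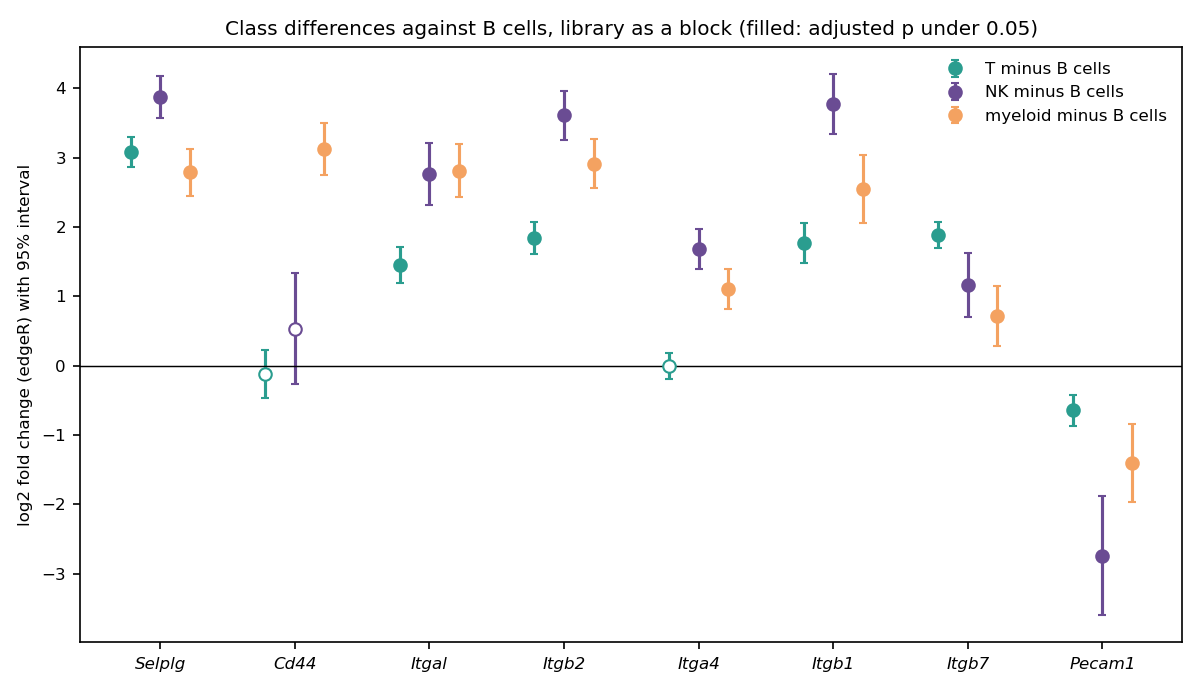
Fitted log2 difference of T, NK and myeloid cells against B cells with 95% intervals (edgeR, library as a block); filled points passed adjusted p under 0.05. Itgam is left out because its B cell level rests on 11 counts. Selplg was 3.08 higher in T than in B cells, and Itga4 did not differ between T and B cells beyond its error (-0.00 ± 0.10). Pecam1 lay below 0 in all 3 comparisons, but it passed the filter through B and T cells. Its NK and myeloid directions therefore support nothing.

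Between T and B cells, the alpha 4 chain did not follow its beta partners. Itga4 was at 394 and 284 CPM in B cells of the 3′ libraries, 179 and 141 in the standard 5′ libraries and 157 and 158 in the modified 5′ libraries, and in T cells at 371 and 334, 149 and 139, and 220 and 135 CPM. T and B cells overlapped, with a log2 difference of -0.00 ± 0.10 (95% interval -0.19 to 0.19). NK cells, at 330 to 1385 CPM, exceeded B cells in 6 of 6 libraries, by 1.68 ± 0.15 (log2, edgeR adjusted p = 1.90e-23). Myeloid cells, at 286 to 867 CPM, exceeded B cells by 1.11 ± 0.15 (edgeR adjusted p = 6.22e-12).

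Itgb1, the beta chain of VLA-4 and of many matrix-binding integrins, ranged from 24.4 to 43.7 CPM in B cells (median 31.9) and from 78.9 to 149 CPM in T cells (median 129). NK cells ranged from 165 to 717 CPM (median 607) and myeloid cells from 109.7 to 327 CPM (median 207). B and T ranges stayed apart, and so did T and NK ranges. T minus B was 1.77 ± 0.15, NK minus T 2.01 ± 0.19 and myeloid minus NK -1.23 ± 0.23 (log2, edgeR adjusted p = 2.97e-26, 2.03e-20 and 2.44e-06). The last was lost with the stricter gate (-0.49, edgeR adjusted p = 0.454).

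Itgb7, by contrast, had its highest median in T cells (406 CPM, against 283 in NK, 191 in myeloid and 101 in B cells). Its T cell level was 255 and 366 CPM in the 3′ libraries, 446 and 450.5 in the standard 5′ libraries and 293 and 467 in the modified 5′ libraries, against 44.8 to 120 CPM in B cells. One myeloid sum, of 16 cells and 5 counts, lay above all T cell values, at 548 CPM. T cells exceeded B cells by 1.88 ± 0.09 and myeloid cells fell below T cells, at -1.17 ± 0.18 (log2, edgeR adjusted p = 4.57e-56 and 7.37e-09). NK minus T was -0.72 ± 0.20 (edgeR adjusted p = 0.00274), but -0.45 (adjusted p = 0.118) when scaled by library totals and -0.56 (adjusted p = 0.101) in DESeq2. With the stricter gate Itgb7 lost its calls for NK minus B (0.78 against 1.16, edgeR adjusted p = 0.177) and myeloid minus B (0.54 against 0.71, adjusted p = 0.113).

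The balance of the 2 partners of the alpha 4 chain thus differed between classes. As a log2 ratio of levels (CPM + 10, not per length), Itgb7 over Itgb1 was 1.58 ± 0.21 in T cells and 1.19 ± 0.59 in B cells (mean ± SD, n = 6 libraries). It was -1.03 ± 0.25 in NK cells and -0.64 ± 1.11 in myeloid cells (n = 5 libraries with at least 20 cells). The T cell values, 1.28 to 1.79, did not overlap the NK values, -1.47 to -0.90.

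Pecam1 ran in the other direction. In B cells it was at 247 and 205 CPM in the 3′ libraries, 147 and 87.3 in the standard 5′ libraries and 115 and 132 in the modified 5′ libraries, and in T cells at 160 and 144, 83.7 and 64.1, and 84.5 and 73.9 CPM. T cells were lower than B cells in 6 of 6 libraries, by a fitted log2 difference of -0.64 ± 0.11 (edgeR adjusted p = 1.35e-07), although the ranges overlapped across protocols. NK cells held 6 counts and myeloid cells 22 counts in all, with pooled ratios to B cells of 0.173 (exact 95% interval 0.0633 to 0.378) and 0.378 (0.236 to 0.577). With the stricter gate the NK minus T call of Pecam1 was lost (-1.28 against -2.10, edgeR adjusted p = 0.265). Platelet markers summed to 0 to 6.65 CPM and endothelial markers to 4.23 to 12.8 CPM in B cells, below every Pecam1 value there. In T cells they summed to 0 to 27.3 and 0 to 22.3 CPM. In NK cells all 12 endothelial markers were at 0, and platelet markers summed to 0 to 84.3 CPM. In myeloid cells platelet markers summed to 0 to 36.3 and endothelial markers to 0 to 108 CPM, while Pecam1 was at 0 to 109 CPM. The part of such cells in the myeloid Pecam1 level was not tested.

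Haemoglobin and other red cell markers reached 117376 CPM in NK and 112563 CPM in myeloid sums of single libraries. The NK value belonged to the standard 5′ replicate 1 library, whose 17 NK cells were too few for its sum to enter the class fit. Leaving haemoglobin, immunoglobulin and T cell receptor genes out of the sums changed no call of the 9 genes between classes. That fit could not respond to the NK sum with the red cell markers.

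**Figure D3:**
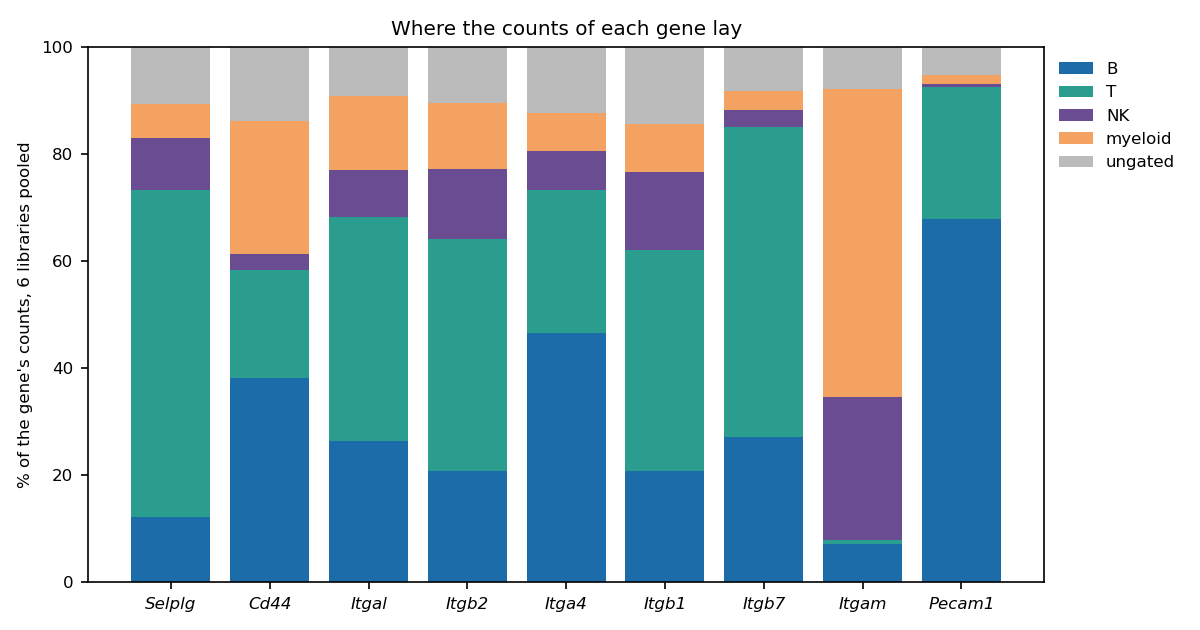
Share of the counts of each gene that lay in each gated class, pooled over 6 libraries (bars sum to 100%; grey, ungated barcodes). Of the Itgam counts 57.5% lay in myeloid cells and 26.8% in NK cells, and of the Pecam1 counts 67.8% lay in B cells. The classes differ in size: per library, myeloid cells were 1.29% to 3.61% of kept cells, NK cells 1.84% to 2.96% and B cells 45.5% to 60.6%.

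Of 20 further integrin subunits on the list, 6 were tested between classes. None of their B cell sums reached the level of the filter on low counts, so differences from B cells are given as levels, with no count of calls. Itga2, the alpha 2 chain known as the NK marker CD49b, was listed at 0 in B cells of every library and had a median of 177 CPM in NK cells and 7.50 CPM in T cells. Itgax, the alpha X chain (CD11c), had medians of 196 CPM in NK cells and 138 CPM in myeloid cells, and 0.799 CPM in B cells. Itga6, the laminin-binding alpha 6 chain, was at 37.2 to 70.9 CPM in T cells and 0 in myeloid cells of every library.

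Of 27 genes that act on integrin activation 20 were tested, of which 10 were higher and 4 lower in T than in B cells, where 21.2% of all genes were higher and 21.6% lower. Skap1 and Fyb, adaptors that link the T cell receptor to LFA-1 activation, both among the 10, were at 468 to 698 and 482 to 687 CPM in T cells. They were at 3.01 to 19.2 and 6.40 to 20.3 CPM in B cells, where no sum reached the filter's level. Their direction against B cells was therefore set by the filter, and neither is support within the 10. Skap2, the related adaptor of myeloid cells, was lower in T cells (-2.19 ± 0.23) and higher in myeloid than in B cells (2.01 ± 0.23). No T sum of Skap2 reached the filter's level, so its lower direction in T cells supports nothing either. Of 16 tested ligands and partners, 7 were higher and 2 lower in T cells, against the same shares of all genes. Among the 16, Cd226 and Cd96 passed the filter only through T cells. Each reached its level in 6 T sums, 3 NK sums and 0 B sums, where 5 sums were needed. Their direction against B cells was therefore fixed by the filter and supports nothing. Spn and Cd81, also among the 16, reached it in 0 B sums and in 1 T sum, and the same limit holds for them. None of these genes is support within the counts of 7 and 2. Vcam1, the VLA-4 ligand, and Fn1, fibronectin, had medians of 386 and 373 CPM in myeloid cells and of 2.03 and 5.66 CPM in B cells. No B or T cell sum of either gene reached the filter's level, so no test is given. Of the 7 tested linkers between membrane and actin, 3 were higher and 2 lower in T cells (21.2% and 21.6% of all genes), among them Ezr (ezrin) at -0.55 ± 0.09.

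As a description of likeness, log2 levels (CPM + 10) were centred within libraries and correlated over the 22 class sums with 3669 other genes of at least 50 CPM, gate markers left out. The sums share libraries and class sizes. Itgb2 was most like Zyx (r = 0.981) and Itgb1 (0.979), and Itgal was most like Rap1b (0.964) and Zyx (0.959). Itgam was most like Fcer1g (0.981) and Itgax (0.966), Cd44 like Lgals3 (0.970), Selplg like Lfng (0.979) and Spn (0.977), Itga4 like Fgl2 (0.953), and Itgb7 like Saraf (0.935). Of its beta partners, Itga4 was like Itgb1 (0.842) and little like Itgb7 (0.126). Pecam1 had its highest value with Rbmxl1 (0.867) and its lowest among the receptors with Itgal (-0.824).

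Between protocols, some of these receptors were called as different and others were not, with 2 libraries a group. A receptor that was not called is not thereby shown to be unchanged. Over all kept cells, Selplg was at 139 and 195 CPM in the 3′ libraries, 399 and 446 in the standard 5′ libraries and 290 and 402 in the modified 5′ libraries. Itga4 was at 405 and 361, 186 and 166, and 188 and 174 CPM, and Pecam1 at 182 and 171, 92.9 and 71.2, and 95.1 and 103 CPM. Neither gene's 3′ values overlapped its 5′ values, and both were higher in 3′ libraries, the reverse of Selplg.

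In edgeR's test over all kept cells (11546 genes), 2 of 9 genes were higher and 2 lower in standard 5′ than in 3′ libraries, where 12.5% of all genes were higher and 10.8% lower. Selplg was higher by 1.73 ± 0.24 and Itgb7 by 0.89 ± 0.27 (log2, edgeR adjusted p = 0.00254 and 0.0414). Itga4 and Pecam1 were lower, at -0.75 ± 0.21 and -0.77 ± 0.22 (edgeR adjusted p = 0.0301 and 0.0342). Within replicate 1 and replicate 2, on the log2(CPM + 1) scale, Selplg differed by 1.52 and 1.19, Itga4 by -1.12 and -1.11, Pecam1 by -0.96 and -1.26, and Itgb7 by 0.65 and 0.37. With the replicate number as a block, Itgb2 (0.72, edgeR adjusted p = 0.00981) and Itgb1 (0.57, adjusted p = 0.0321) passed as well, where 35.7% of all genes were called. Their replicate 2 differences, on the log2(CPM + 1) scale, were -0.01 and -0.00.

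When each library was left out in turn, Selplg passed in all 6 fits (log2 1.53 to 1.98). Itga4 was lost in 4 of 6, among them without the standard 5′ replicate 2 library (-0.63, edgeR adjusted p = 0.261). Itgb7 was lost in 4 and Pecam1 in 3, with adjusted p up to 0.278 and 0.341, both also without that library.

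The values depend on scaling as well. TMM factors centre the median gene near 0, and scaling by library totals moved the median log2 difference of standard 5′ minus 3′ by -0.38, to -0.39. The share of calls that were higher fell from 53.7% to 17.4%, and from 55.5% to 17.9% for modified 5′ minus 3′. Selplg remained higher (1.33, edgeR adjusted p = 0.00591) and Itga4 and Pecam1 lower (-1.14 and -1.15, adjusted p = 0.00513 and 0.00622) under library totals, whereas Itgb7 did not pass (0.49, adjusted p = 0.227). The sign of Itgal differed between scalings (0.06 and -0.33, neither called).

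Modified 5′ against 3′ gave 1 higher and 1 lower of 9 genes, where 10.2% of all genes were higher and 8.19% lower: Selplg at 1.41 ± 0.24 and Itga4 at -0.73 ± 0.20 (log2, edgeR adjusted p = 0.00633 and 0.0353). The Itga4 call was lost in 5 of 6 fits that left out a library (edgeR adjusted p up to 0.250, without modified 5′ replicate 2), and that of Selplg in 1, also without that library (1.21, adjusted p = 0.0509). Under library totals Selplg (1.05) and Itga4 (-1.09) passed, and Pecam1 passed as well (-0.84, edgeR adjusted p = 0.0195). With the replicate block, 5 of 9 genes passed, adding Itgb7 (0.72), Itgb2 (0.65) and Pecam1 (-0.48), where 33.1% of all genes were called. The replicate 2 difference of Itgb2 was -0.01 on the log2(CPM + 1) scale. Modified against standard 5′ gave none of 9 by edgeR, where 0% of 11546 genes were called, 459 at an unadjusted p under 0.05, and DESeq2 called 1 gene and none of the 9. The 95% interval of the modified minus standard difference was -0.84 to 0.20 for Selplg and -0.45 to 0.49 for Itga4.

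**Figure D4:**
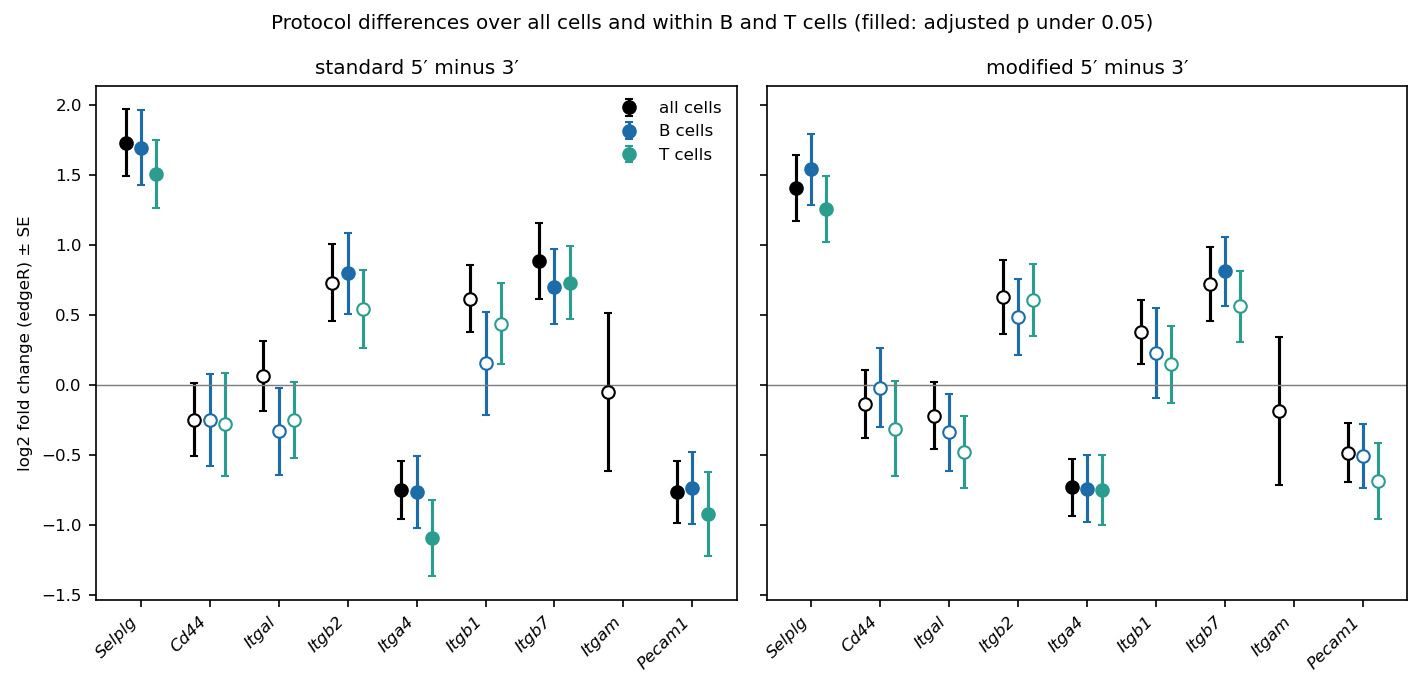
Fitted log2 differences (edgeR, TMM scaling) of standard 5′ minus 3′ and modified 5′ minus 3′ libraries with SE, over all cells and within B and T cells; filled points passed adjusted p under 0.05. Itgam was not tested within B or T cells. Selplg lay between 1.26 and 1.73 in all 6 comparisons and Itga4 between -1.09 and -0.73.

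Differences of like size were measured within B and T cells. In B cells, standard 5′ minus 3′ gave Selplg 1.69 ± 0.27, Itgb2 0.80 ± 0.29 and Itgb7 0.70 ± 0.27 as higher, and Itga4 -0.76 ± 0.26 and Pecam1 -0.74 ± 0.26 as lower, 5 of 8 genes tested, where 16.9% of all genes were higher and 15.9% lower. In T cells, Selplg (1.51 ± 0.24) and Itgb7 (0.73 ± 0.26) were higher and Itga4 (-1.09 ± 0.27) and Pecam1 (-0.92 ± 0.30) lower, 4 of 8, where 11.2% of all genes were higher and 12.6% lower. The share of calls that were higher went from 51.5% to 20.1% in B cells and from 47% to 25.4% in T cells when scaled by library totals. Under library totals the Itgb7 and Itgb2 calls in B cells and the Itgb7 call in T cells were lost (0.31, 0.40 and 0.50). In replicate 1 B cells, Itgb7 in CPM was lower in the standard 5′ than in the 3′ library (-0.56), on 7 counts. In DESeq2 the B cell calls of Itgb2, Itgb7 and Pecam1 were lost (adjusted p = 0.238, 0.357 and 0.0966). So were the T cell calls of Itgb7 and Pecam1 (DESeq2 adjusted p = 0.0893 and 0.158). The stricter gate lost Itgb2 in B cells and Itgb7 in T cells (edgeR adjusted p = 0.103 and 0.0836). Without the standard 5′ replicate 2 library, Pecam1 was at -0.37 in B and -0.70 in T cells.

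Modified 5′ minus 3′ gave 3 of 8 calls in B cells (14.8% of all genes higher, 14.3% lower) and 2 of 8 in T cells (9.97% higher, 9.56% lower), Selplg at 1.54 ± 0.25 and 1.26 ± 0.24 and Itga4 at -0.74 ± 0.24 and -0.75 ± 0.25 in both, with Itgb7 at 0.81 ± 0.25 as the further call in B cells (0.56 ± 0.25 in T cells, not called). That B cell call of Itgb7 was lost under library totals (0.44, edgeR adjusted p = 0.161), in DESeq2 (0.79, adjusted p = 0.147) and in 3 of 6 fits that left out a library. The Itga4 call in T cells was lost in DESeq2 (-0.75, adjusted p = 0.132) and with the stricter gate (-0.71, edgeR adjusted p = 0.0578). It was also lost without 3′ replicate 1 (-0.67), standard 5′ replicate 1 (-0.69) or modified 5′ replicate 2 (-0.38). In B cells the Itga4 call was lost without 3′ replicate 1 (-0.55), modified 5′ replicate 1 (-0.79) or modified 5′ replicate 2 (-0.78). Under library totals Pecam1 and Itgal were called as lower in B cells (-0.88 and -0.71, edgeR adjusted p = 0.00314 and 0.0405) and in T cells (-0.97 and -0.77, adjusted p = 0.0095 and 0.0294). With the replicate block, Pecam1 also passed in T cells (-0.68, edgeR adjusted p = 0.0425), where 23.1% of all genes were called. Modified against standard 5′ gave none of 8 in B cells, where 0.0736% of all genes were called, and none of 8 in T cells, where 0.0125% were called. The interaction of class with protocol was called for none of 8 genes in the 3 contrasts (0.181%, 0.0426% and 0.139% of 9379 genes), with a 95% interval for Selplg, standard 5′ minus 3′, of -0.56 to 0.36.

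Annotated transcript length ran alongside the protocol differences. Over 11412 genes with a length, standard 5′ minus 3′ had a Spearman correlation with length of -0.444, and over the 9 receptors it was -0.733. Over 5 equal bins of length the median log2 difference went from 0.60 (median 1120 nt) to -0.57 (median 6548 nt). Selplg, at 1855 nt the shortest of the 9, had the highest difference. Itga4, at 9767 nt the longest, was at -0.75, next to Pecam1, which at 3441 nt had the lowest, at -0.77. Whether length takes part in the differences was not tested.

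**Figure D5:**
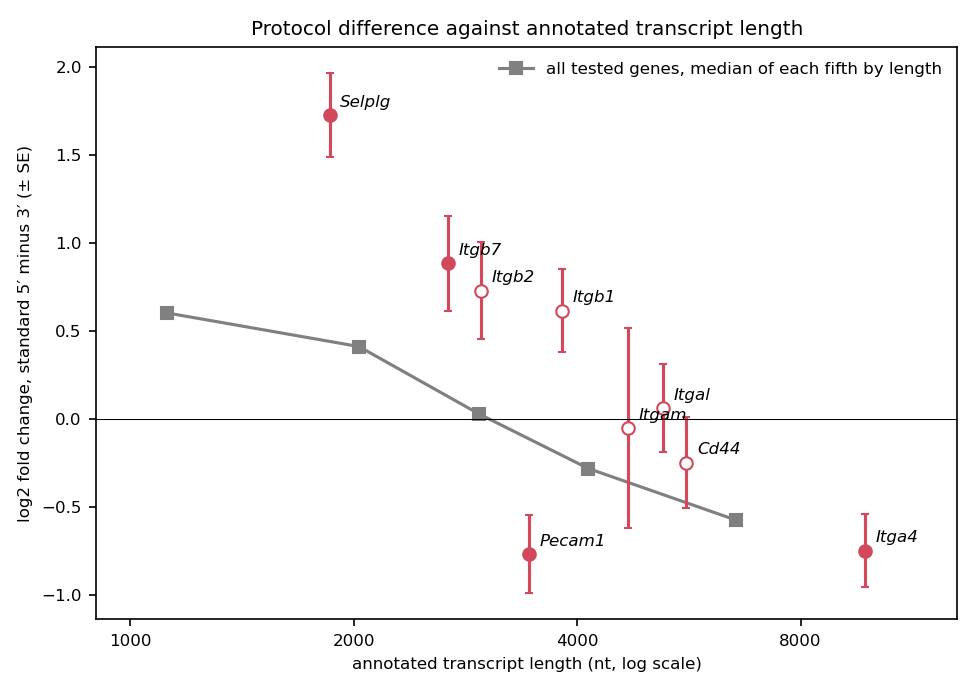
Fitted log2 difference of standard 5′ minus 3′ libraries (± SE) against annotated transcript length (log scale) for the 9 receptors, with the medians of all tested genes in 5 equal bins of length in grey; filled points passed adjusted p under 0.05. Selplg (1855 nt) stood at 1.73 and Itga4 (9767 nt) at -0.75, while Pecam1 (3441 nt, -0.77) lay below the grey line.

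Between replicate 2 and replicate 1 libraries, with protocol in the fit, only Itgam of the 9 genes was called, where 0.65% of all genes were higher and 2.93% lower. Its level over all cells was 8.6, 8.2 and 7.5 CPM in the replicate 1 libraries and 25.9, 14.96 and 15.7 CPM in the replicate 2 libraries, without overlap. The fitted log2 difference was 1.25 ± 0.35 (edgeR adjusted p = 0.0353). Gated myeloid cells made up 1.29% to 1.86% of kept cells in the replicate 1 libraries and 2.84% to 3.61% in the replicate 2 libraries. Within gated myeloid cells Itgam was at 200, 329 and 145 CPM in the replicate 1 libraries and at 377, 168 and 167 CPM in the replicate 2 libraries, with overlap, and no fit within myeloid cells was run. The call was lost in DESeq2 (1.18, adjusted p = 0.817) and without either 3′ library (0.96 and 0.95, edgeR adjusted p = 0.782 and 0.784). The extraction texts differ between replicates as well, and their part was not tested.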

How the data were processed

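The data were 6 single-cell count matrices, 2 per protocol. The counts per gene and barcode are as the authors deposited them, on mm10, and Seurat is named for the replicate 2 libraries, per the submitters' processing notes. Aligner, annotation, use of strand, collapse of molecular identifiers and cell calling were not given in the sources used here. No row without a gene name entered the sums.

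Barcodes needed 200 genes or more and no more than 20% of mitochondrial counts. A cell was gated when its class list (B 15 genes, T 14, NK 11, myeloid 19) summed to at least 2 counts and at least 3 times each other list. Mixed barcodes stayed ungated and no doublet caller was run. Counts were summed per library and class and scaled by the summed counts (CPM).

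Sums were tested with edgeR 4.0.16 (R 4.3.3; TMM, filterByExpr, quasi-likelihood test, Benjamini-Hochberg adjustment over all genes). The filter's minimum count was 10 for protocol and replicate fits, and 5 with a total of 20 for class and interaction fits, whose class sums needed 20 cells. SE is the log2 difference divided by the square root of F. The fits were tested on simulated counts. Chi-square per degree of freedom between libraries was 3.57 to 45.7, so none was counted as a duplicate.

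The main protocol fits held protocol alone, with no block for replicate number. For protocol, pairs by replicate number entered only the within-replicate differences and the replicate block, which was an alternative. Libraries of 1 number share their extraction text and deviated together (correlations 0.711, 0.531 and 0.481 over 3433 genes). All 9 receptors are named. Of each further adhesion list, the text names genes from up to 2 higher and 2 lower with the largest change per comparison. For likeness it names genes from the 3 most correlated. The receptors, lists and gates were chosen with earlier results of these data known. DESeq2 1.42.0, other scalings, filters, gates, blocks and leaving out each library were alternatives. Scaling by library totals, single-replicate class fits and leaving out cells with neutrophil counts were added after seeing the data.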

Additional observations from a re-analysis of the deposited data

Results flagged for a closer look

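A total of 3 values stood far from the other libraries of their class by Dixon's test at the 95% level, out of 36 combinations of gene and class, and chance gives about 1 in 20. Itgb7 in myeloid cells of the 3′ replicate 1 library was at 33.3 CPM, on 1 count, and the nearest of the other 4 libraries was at 177 CPM. Itgam in myeloid cells of the 3′ replicate 2 library was at 377 CPM, on 45 counts, and the nearest was at 200 CPM. Neutrophil markers summed to 10941 CPM in that library's myeloid cells, and Itgam was at 366 CPM without the cells that held any such count. Itgam in T cells was at 1.60 CPM in the standard 5′ replicate 2 library, on 1 count, and listed at 0 in the other 5. With a single count the gap is the whole range, so the outcome of this test was fixed and it supports nothing.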

How the results depend on the processing

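No call of the receptors changed for modified against standard 5′ or for the interactions under any alternative run. When each library was left out in turn, the number of the 9 receptors called was 6 to 7 for T minus B, 8 for NK minus B and for NK minus T, 8 to 9 for myeloid minus B, 7 to 9 for myeloid minus T and 4 to 5 for myeloid minus NK. Myeloid minus NK fell from 5 calls to 2 with the stricter gate and to 2 without the library block, and in the replicate 1 libraries alone to 1, where myeloid minus T fell from 8 to 4. That last fit uses fewer cells and libraries, and for the others the cause was not tested. Protocol calls moved more. Leaving out each library gave 1 to 6 calls for standard 5′ minus 3′ over all cells, 1 to 5 in B cells and 1 to 5 in T cells, and 0 to 4 for modified 5′ minus 3′ over all cells, 1 to 4 in B cells and 1 to 4 in T cells. Itgb7 for standard 5′ minus 3′ in B cells ran from -0.59 to 1.01 (0.70 with all libraries). It was -0.59 (edgeR adjusted p = 0.573) without the standard 5′ replicate 2 library, which leaves that arm with 1 library of 7 Itgb7 counts, assumed to vary like the others. DESeq2 gave 2 calls for standard 5′ minus 3′ in B cells and 2 in T cells (against 5 and 4), 1 for modified 5′ minus 3′ in T cells (against 2) and 0 for replicate 2 minus 1 (against 1). The stricter gate also gave 1 for modified 5′ minus 3′ in T cells. Scaling by library totals gave 3 for standard 5′ minus 3′ in B cells and 4 for modified 5′ minus 3′ in T cells. The replicate block raised modified 5′ minus 3′ over all cells from 2 to 5 and, besides the calls given with the results, changed no other call of the 9 receptors. Replicate 2 minus 1 had 0 to 1 calls when libraries were left out and 0 without the protocol term. Counts over all genes moved by over 1.5 times in several settings. For standard 5′ minus 3′ over all cells, 2689 genes became 1584 in DESeq2 and 4127 with the replicate block, and for modified 5′ minus 3′, 2124 became 1258 and 3820. In B cells 3125 became 1201 and in T cells 1900 became 599 in DESeq2. Modified against standard 5′, with 0 genes, gave 65 without the filter on low counts and 21 with the block. T minus B fell from 2818 to 1408 without the library block. NK and myeloid levels are limited by depth, with sums as small as 6066 and 9117 counts.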
